A study of Homo sapiens with 2 samples.

Results

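The BCL2 family sets whether the outer membrane of mitochondria stays sealed, and 10 of its genes were followed here in Huh-7 (an established line from a human liver cancer) after transfection with siRNA against DEPDC1. The genes were BCL2, BCL2L1, MCL1, BAX, BAK1, BCL2L11, BID, BBC3, PMAIP1 and BMF. They were chosen with earlier results of these data known and found by symbol in the platform annotation. Each had 1 probe set that no other gene shared. They are 10 of 18417 genes with such a probe set. The labels give 1 array of cells transfected with NC, the control, and 1 array of cells transfected with DEPDC1 siRNA, both harvested 72 h after transfection. What NC stands for, the siRNA sequence and its dose are not given in the sources used here, and untransfected cells were not analysed here. Since each group had 1 array, the spread between replicates is unknown and no p-value is given.

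In this family, anti-apoptotic proteins such as BCL2, BCL-XL and MCL1 hold the pore-forming effectors BAX and BAK in check. BH3-only proteins carry a short helix, the BH3 motif, that fits a groove of the anti-apoptotic proteins and blocks them, and some of them also activate BAX and BAK directly. Once BAX or BAK opens the membrane, cytochrome c leaves the mitochondria and joins APAF1 in the apoptosome, which activates caspases. Much of this control lies in protein cleavage, phosphorylation and turnover, which an array of transcripts does not measure. An array value summarises the transcripts of a gene, so splice forms with opposite functions, known for BCL2L1 and MCL1, were not separated.

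Expression is given as the deposited value, taken as log2 (1 unit is a factor of 2), and each difference subtracts the NC value from the siRNA value. A gene counted as detected if at least 1 array had a value at or above 4.66, the median over all probe sets. By this rule 11352 of the 18417 genes were detected, among them 9 of the 10 BCL2 family genes. Levels are not compared between genes, since probe sets differ in how strongly they bind. DEPDC1 had a value of 7.82 with NC and 5.15 with siRNA, 6.37-fold lower. Of the hepatocyte markers examined, 9 of 10 were analysed and all 9 were detected in these cells. By 2-fold or more, 4 were lower with siRNA (AFP, APOB, SERPINA1 and TF) and 1 was higher (TTR). Of all detected genes, 0.863% were lower and 1.94% higher by as much. Among fibroblast markers 5 of 7 were detected, with LUM 4.95-fold and COL1A2 2.10-fold higher in the siRNA array. COL1A1, COL3A1 and PDGFRA, also detected, differed by 0.06, -0.04 and 0.09. PDGFRB and DCN were under the threshold in both arrays and differed by -0.40 and 0.15. The mean level of all 7 was 5.24 with NC and 5.71 with siRNA, and the higher mean rested on LUM and COL1A2. None of 5 endothelial markers was detected. Among 5 leukocyte markers analysed, PTPRC, CD3E and CSF1R were under the threshold, while CD14 (6.83 in NC, 7.10 in siRNA) and LST1 (4.60 and 4.69) reached it. The part of other cells in the values below was not tested. In RNA from a whole culture, fewer cells with a transcript and less transcript per cell cannot be told apart.

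The regions around the start sites of BCL2L11, BID and PMAIP1 are shown because these were the members whose values differed most between the arrays, as chosen after their values were seen. Each sequence runs from 250 bases before to 50 bases after the annotated start, 5′ to 3′ on the strand of the gene, from RefSeq on GRCh38.p14. BCL2L11 lies at chr2:111120664-111120963 on the plus strand, BID at chr22:17774420-17774719 on the minus strand and PMAIP1 at chr18:59899746-59900045 on the plus strand. Capitals mark matches to any of 6 motifs searched on both strands, which were the GC box GGGCGG, the FOXO motif GTAAACA, the E2F motif TTTNNCGC, the ATF4 and CHOP motif TGATGNAAT, the E-box CACGTG and the TATA box TATAAA.
BCL2L11 promoter: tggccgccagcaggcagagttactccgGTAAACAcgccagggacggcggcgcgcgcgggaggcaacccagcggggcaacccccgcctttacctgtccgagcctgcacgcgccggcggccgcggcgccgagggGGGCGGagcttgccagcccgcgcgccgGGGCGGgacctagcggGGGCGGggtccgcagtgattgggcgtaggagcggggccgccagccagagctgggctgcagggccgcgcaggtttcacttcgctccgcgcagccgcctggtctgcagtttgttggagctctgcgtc
BID promoter: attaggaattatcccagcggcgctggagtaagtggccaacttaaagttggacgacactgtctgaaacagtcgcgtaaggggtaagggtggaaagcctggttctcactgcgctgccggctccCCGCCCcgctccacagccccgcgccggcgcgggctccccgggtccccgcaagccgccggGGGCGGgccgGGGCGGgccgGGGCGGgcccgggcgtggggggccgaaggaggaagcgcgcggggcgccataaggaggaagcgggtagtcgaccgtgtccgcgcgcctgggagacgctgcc
PMAIP1 promoter: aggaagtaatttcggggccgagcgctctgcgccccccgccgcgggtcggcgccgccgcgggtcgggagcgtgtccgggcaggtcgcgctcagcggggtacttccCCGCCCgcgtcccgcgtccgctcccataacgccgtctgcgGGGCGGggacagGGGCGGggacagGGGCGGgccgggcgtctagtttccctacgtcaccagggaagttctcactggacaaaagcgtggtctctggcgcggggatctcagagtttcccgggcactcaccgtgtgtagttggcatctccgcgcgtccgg

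All 3 windows were rich in G and C. Their GC content was 74.7% for BCL2L11, 71.7% for BID and 71.3% for PMAIP1, against a median of 58.3% over 27305 promoters of the same length. The BCL2L11 window held 39 CpG dinucleotides, that of BID 37 and that of PMAIP1 42, against a median of 14. GC boxes were found 3 times in BCL2L11, 4 times in BID and 4 times in PMAIP1, with no overlap between matches, and 44.6% of all promoters held at least 1. The FOXO motif matched once in BCL2L11, from position 28 of the window, and in no other of the 9 members with an entry, while 3.41% of all promoters held it. No E2F, ATF4 and CHOP, E-box or TATA match lay in these 3 windows; 6.90%, 1.02%, 7.43% and 12.0% of all promoters held those motifs. The GC boxes, the high GC content and the many CpG dinucleotides were not particular to the 3 genes. GC boxes were found in 6 of the 9 members' windows, with 2 matches each in BAX, BAK1 and BMF, and the window of BCL2 had a GC content of 70.7% and 31 CpG dinucleotides. The BAX window also held 4 E-box matches and that of BBC3 held 1, while that of BCL2L1 held 1 E2F and 2 TATA matches. A match describes letters only and shows no binding in these cells.

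The clearest difference in the family was in the BH3-only group, where BCL2L11 was lower in the siRNA array. BCL2L11 encodes BIM, which binds all the main anti-apoptotic proteins and can activate BAX and BAK directly. Its value (probe set 8044375, Entrez gene 10018) was 6.90 with NC and 5.32 with siRNA, both above the detection threshold. That is a difference of -1.58, or 2.99-fold lower. By a threshold of 2-fold, BCL2L11 was the 1 member called lower, and no member was called higher. The same threshold called 0.863% of all detected genes lower and 1.94% higher. In the order of all 11352 detected genes from the lowest difference upward, BCL2L11 stood at place 21. Of the 2962 detected genes whose mean level lay within 0.5 of that of BCL2L11, 7 (0.236%), BCL2L11 included, were lower by as much, while the central 90% of those genes ran from -0.53 to 0.66. BCL2L11 thus lay well outside the range that held most genes of its brightness in this pair of arrays.

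**Figure D1:**
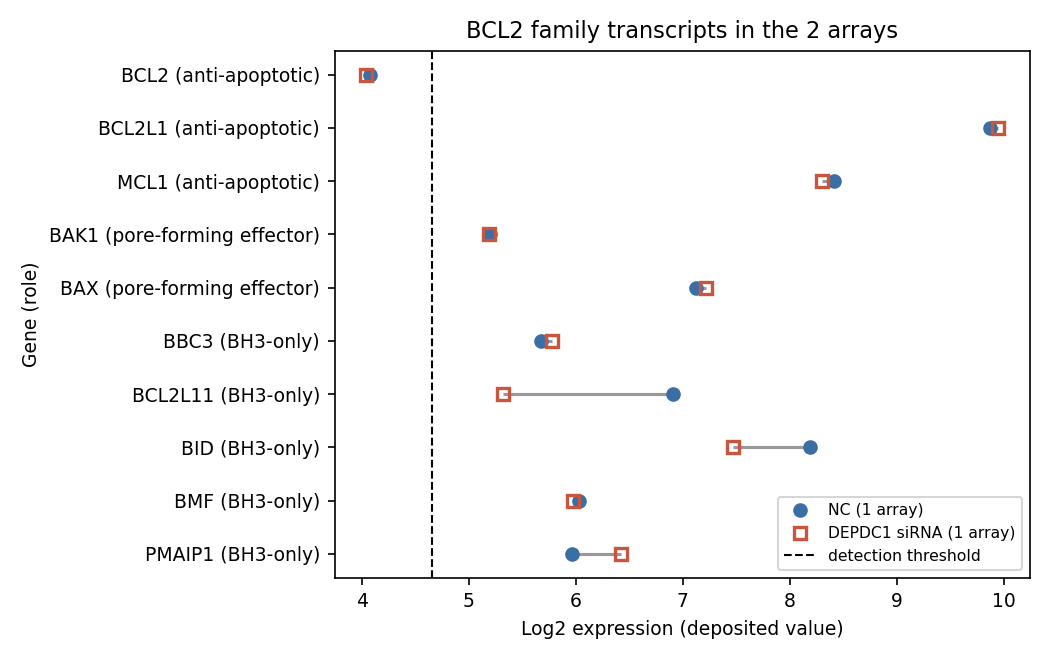
Deposited log2 expression (x axis) of the 10 BCL2 family genes (y axis, with role) in the NC array (filled circles) and the DEPDC1 siRNA array (open squares), 1 array each, joined by a line; the dashed line is the detection threshold of 4.66. BCL2L11 (6.90 to 5.32) and BID (8.19 to 7.47) have lower siRNA values, PMAIP1 (5.97 to 6.42) has a higher one, and the symbols of the other 7 genes nearly coincide.

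BID was the next lowest member. It encodes a BH3-only protein that caspase 8 cleaves into an active fragment, the step that ties death receptors to mitochondria in hepatocytes. Its value was 8.19 with NC and 7.47 with siRNA, a difference of -0.72 or 1.65-fold lower. BID was thus short of 2-fold but past 1.5-fold. Counted at 1.5-fold, 2 of the 9 detected members were lower and none higher, against 3.74% and 6.03% of all detected genes. BID stood at place 262 from the lowest difference, and 60 of 1853 genes of similar level (3.24%), BID included, were lower by as much.

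PMAIP1 was the member with the highest difference. It encodes NOXA, a BH3-only protein that binds MCL1 and favours its degradation. PMAIP1 had 5.97 with NC and 6.42 with siRNA, a difference of 0.46 or 1.37-fold higher. Many genes did the same: 328 of 2910 detected genes of similar level (11.3%) were higher by at least this much. The difference of PMAIP1 therefore lay inside the central 90% of its neighbours in brightness, -0.53 to 0.68.

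The remaining BH3-only members had nearly equal values in both arrays. BBC3 encodes PUMA, a BH3-only protein known as a p53 target, and had 5.68 with NC and 5.78 with siRNA (difference 0.10). BMF encodes a BH3-only protein that binds a light chain of the myosin V motor, and had 6.03 and 5.98 (difference -0.05). The 5 BH3-only genes therefore spread from -1.58 to 0.46, with 3 lower and 2 higher values and a median of -0.05. This spread was wider than that of the anti-apoptotic and effector members, whose detected genes all lay between -0.12 and 0.10. The wider spread rested on BCL2L11, BID and PMAIP1, while BBC3 and BMF lay between -0.12 and 0.10 too.

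The anti-apoptotic members differed little. MCL1, a short-lived survival protein on which hepatocytes depend, had 8.41 with NC and 8.30 with siRNA (difference -0.12). BCL2L1, which encodes BCL-XL and its short pro-apoptotic splice form, had 9.87 and 9.94 (difference 0.07). BCL2, the founding member, had 4.08 and 4.04, under the detection threshold in both arrays, so no fold is given for it.

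The pore-forming effectors likewise had nearly equal values. BAX had 7.12 with NC and 7.21 with siRNA (difference 0.10). BAK1 had 5.20 and 5.19 (difference -0.01). As a gauge of measurement noise, the differences within a gene were set side by side for the 444 genes measured by several detected probe sets: the median range of their differences was 0.087 and the 90th percentile 0.41. The differences of the 3 members BCL2L11, BID and PMAIP1 exceeded that 90th percentile, and those of the other 6 detected members, at most 0.12 in size, did not. The gauge takes no account of differences between cultures, or of any shift that all probe sets of a gene share. It may also be too small, since probe sets of a gene can share probes. PMAIP1 passed it although its difference lay inside the central 90% of genes of its level, -0.53 to 0.68.

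**Figure D2:**
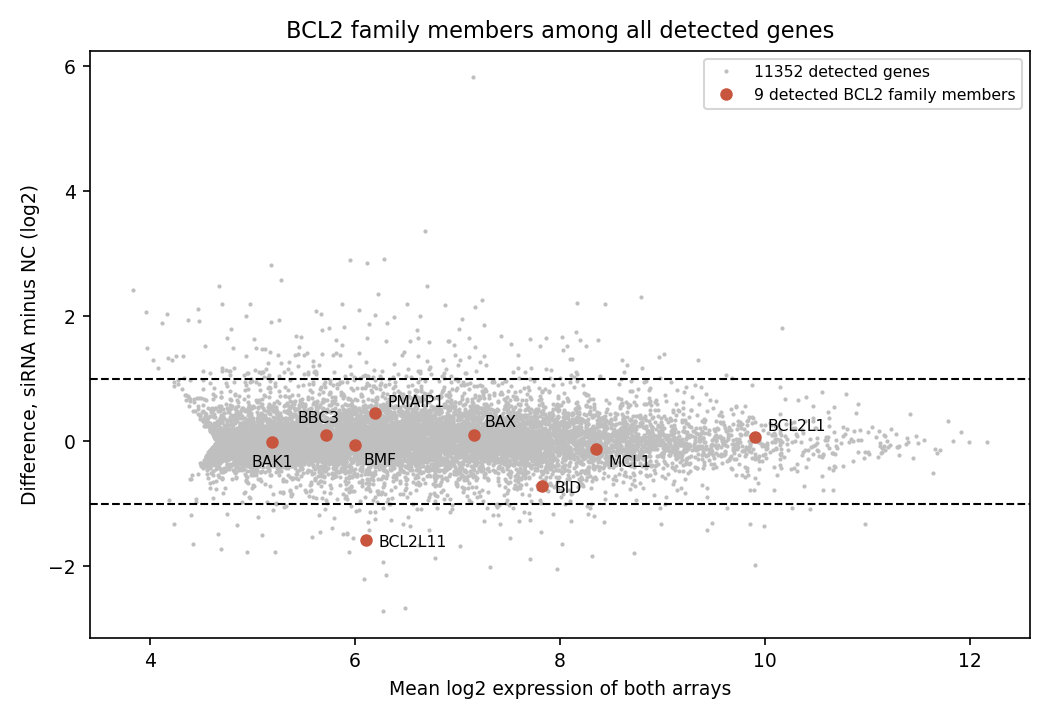
Difference between the arrays (siRNA minus NC, log2, y axis) against the mean log2 expression of both arrays (x axis) for 11352 detected genes (grey) and the 9 detected BCL2 family members (red, named); dashed lines mark 2-fold. BCL2L11 at -1.58 is the 1 member beyond a dashed line, BID at -0.72 lies at the lower edge of the grey band, and the other 7 named members lie within the band.

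Over the 9 detected members, 5 had a lower and 4 a higher siRNA value and the median was -0.01. Over all detected genes 5461 were lower, 5666 higher and 225 equal, and the median was 0.00. The sign of BAK1 turned, to a difference of 0.02 with each array centred on its median and of 0.01 after quantile normalization, so the balance of 5 to 4 is not fixed by these data. Of the 9 members 7 differed by less than 1.5-fold, as did 90.2% of all detected genes.

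Because the BH3-only proteins act by binding the anti-apoptotic ones, the change of one transcript relative to another was also worked out. The binding strength of each probe set cancels in a difference of differences only as far as probe sets respond alike across levels, and differences of dim probe sets, such as that of BAK1, may be understated. BCL2L11 was lower relative to MCL1 by 2.76-fold, relative to BCL2L1 by 3.15-fold, relative to BAX by 3.20-fold and relative to BAK1 by 2.97-fold. The relative change of BCL2L11 was thus close to its own fold against each partner. BID was lower by 1.52-fold relative to MCL1 and by 1.73-fold relative to BCL2L1. PMAIP1 went the other way, 1.49-fold higher relative to MCL1, the partner of NOXA. BMF and BBC3 differed from MCL1 by 0.06 and 0.22 on the log2 scale.

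Other BCL2 family genes showed smaller differences than BCL2L11. Of the 16 listed, 15 were analysed, 9 were detected, and none was 2-fold different, a count near the background of 0.863% lower and 1.94% higher among all detected genes. Their values were lower for 7 and higher for 2, with a median of -0.10, while 5461 of all 11352 detected genes were lower and 5666 higher. BNIP3, a mitochondrial protein that hypoxia induces and that promotes mitophagy, had 9.22 with NC and 8.60 with siRNA (difference -0.62). BECN1, which encodes the autophagy protein Beclin 1 with a BH3 motif, had 6.04 and 6.69 (difference 0.65). BNIP2 and BNIP3L, the latter another mitophagy receptor, differed by -0.26 and -0.21. Among BH3-only and effector genes outside the 10, named after their values were seen, BAD differed by -0.08, HRK by -0.20 and the effector BOK by -0.10, while BIK (3.85 and 3.70) was under the threshold in both arrays. BCL2A1 and BCL2L10, anti-apoptotic relatives also named after their values were seen, were under it too. The probe set of BCL2L2, likewise named afterwards, which it shares with a read-through transcript into PABPN1, had 5.38 and 5.23.

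Around the family, 90 genes of apoptosis and of BCL2 family control were listed, the 16 above among them. Of these 81 were analysed and 68 detected. None of the 68 was at least 2-fold higher or lower, beside 1.94% and 0.863% of all detected genes. At 1.5-fold, 8 were higher (11.8%) and 2 lower (2.94%), beside 6.03% and 3.74% of all detected genes. The median over the 68 was -0.01.

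Of the caspases, the proteases that carry out apoptosis, 4 of 5 detected had a higher value with siRNA, and the median was 0.35. By sign, 5666 of all 11352 detected genes were higher and 5461 lower. At 1.5-fold, 2 of the 5 were higher (40%) and none lower, beside 6.03% and 3.74% of all detected genes. CASP4, an inflammatory caspase that senses bacterial lipopolysaccharide, had 7.50 with NC and 8.29 with siRNA (difference 0.79). CASP8, the initiator that cleaves BID, had 5.03 and 5.65 (difference 0.62). BID, its substrate, had the opposite direction (-0.72). CASP6, an executioner, differed by 0.35 and CASP2 by -0.17. CASP9, the initiator in the apoptosome and named after its value was seen, differed by 0.08.

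Genes of the mitochondrial release step were balanced, 5 higher and 5 lower of 10 detected. None differed by 1.5-fold, a count near the background of 3.74% lower and 6.03% higher among all detected genes. MTCH2, the mitochondrial docking site of cleaved BID, had 10.88 and 10.48 (difference -0.40). HTRA2, a released protease, had 6.28 and 6.68 (difference 0.40). ENDOG, a mitochondrial nuclease, differed by -0.26 and APAF1 by 0.25, while cytochrome c (CYCS), named after its value was seen, differed by 0.01. Inhibitor of apoptosis proteins were within -0.25 to 0.28 for all 6 detected genes, with BIRC5 (survivin) at 0.28, BIRC7 at -0.25, XIAP at 0.17 and BIRC2 at 0.09.

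In the death receptor pathway, 6 of 9 detected genes were higher and 3 lower, while 5666 of all 11352 detected genes were higher and 5461 lower. At 1.5-fold 1 of the 9 was lower and none higher, a count near the background of 3.74% and 6.03% of all detected genes. That gene was TNFSF10, which encodes the ligand TRAIL, with 6.03 with NC and 5.38 with siRNA (difference -0.65). TNFRSF1A, the main TNF receptor, differed by 0.36 and TNFRSF10D, a decoy receptor for TRAIL, by 0.20. For CFLAR, which encodes the caspase 8 inhibitor FLIP, the brighter probe set gave -0.32 and a dimmer one -0.02. FAS and FASLG, named after their values were seen, were under the threshold in both arrays.

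Of 13 detected transcription factors known to act on BCL2 family genes, 7 were higher and 6 lower. At 1.5-fold, 3 of the 13 were higher (23.1%) and none lower, beside 6.03% and 3.74% of all detected genes. STAT3, which is known to induce MCL1 and BCL2L1, had 7.50 and 8.30 (difference 0.80). MYC had 6.26 and 6.97 (difference 0.71). ATF3, a stress-induced factor, had 4.90 and 5.52 (difference 0.62). FOXO1 differed by -0.29. FOXO3, a known activator of BCL2L11 and named after its value was seen, had 4.81 and 4.69 on its own probe set (difference -0.12). A second probe set, which FOXO3 shares with its near-identical copy FOXO3B, had 8.18 and 8.00. ATF4 and DDIT3, factors of the stress response known to act on PMAIP1, BBC3 and BCL2L11 and likewise named after their values were seen, differed by 0.23 and -0.04.

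Kinases, ubiquitin enzymes and binding partners of BCL2 family proteins had 5 higher and 11 lower values among 16 detected genes, with a median of -0.05. Of all 11352 detected genes, 5666 were higher and 5461 lower. At 1.5-fold, 2 of the 16 were higher (12.5%) and none lower, beside 6.03% and 3.74% of all detected genes. AKT1, a survival kinase that restrains BAD and FOXO factors, had 6.77 with NC and 7.43 with siRNA (difference 0.65). GSK3B, which marks MCL1 for degradation, had 7.52 and 8.14 (difference 0.62). MAPK8 (JNK1), which phosphorylates BIM and BMF, differed by -0.38 and CDK1 by -0.35. DYNLL1 and DYNLL2, the dynein light chains that hold BIM and BMF and named after their values were seen, differed by -0.05 and 0.07. For the listed ubiquitin enzymes, also named after their values were seen, the difference was -0.04 for HUWE1 and -0.06 for the deubiquitinase USP9X. It was 0.33 for FBXW7, -0.07 for BTRC and -0.04 for TRIM17.

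**Figure D3:**
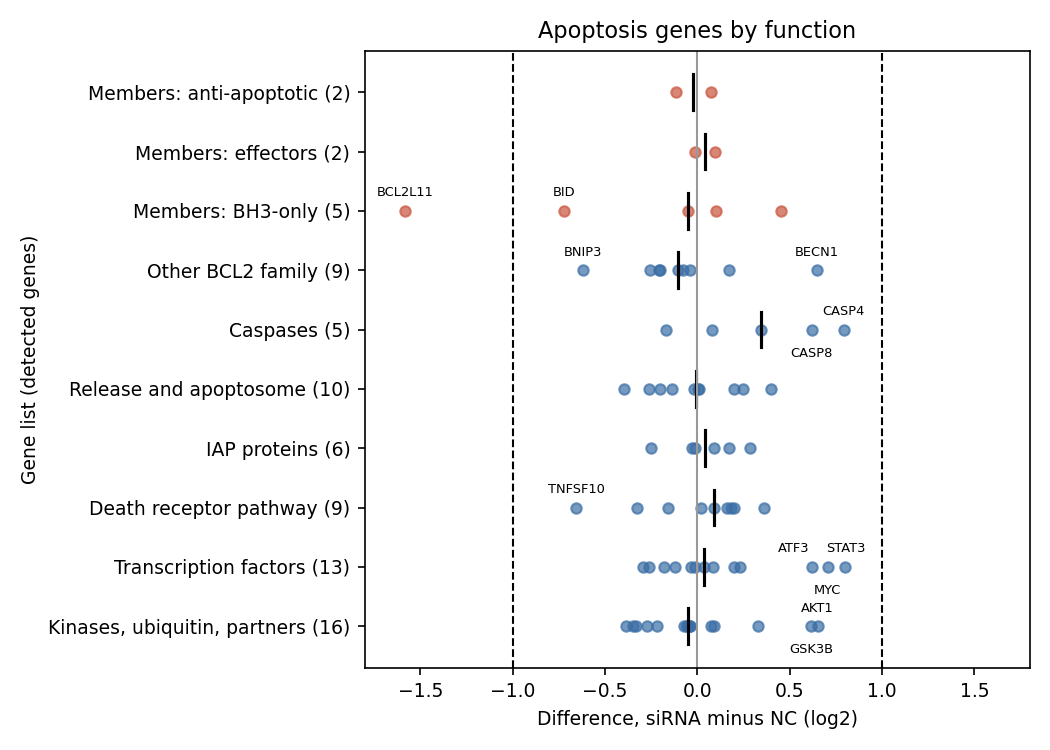
Difference between the arrays (siRNA minus NC, log2, x axis) for each detected gene of the BCL2 family members (red) and of the other apoptosis lists (blue), by list with the number of detected genes (y axis); black ticks are list medians, dashed lines mark 2-fold and genes past 1.5-fold are named. BCL2L11 is the 1 gene beyond a dashed line, and the caspase median of 0.35 is the list median farthest from 0.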

How the data were processed

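The table deposited by the authors holds log2 values of 33297 Affymetrix probe sets, in a column for each array. TRIzol RNA was turned into biotinylated cRNA, per the labels' protocols. The software named in the submitters' processing notes is Transcriptome Analysis Console 3.0 and Affymetrix Expression Console; background correction, normalization and filters are not given in the sources used here. The unit was inferred from the range (1.39 to 12.7). The sorted columns differed by at most 0.0997, so no scaling was added. Depth has no meaning here; the number of arrays limits the precision.

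Python 3.11.15 with pandas 2.3.3 was used. GEO's platform annotation gave 1 gene for 19460 probe sets, and symbols were updated through Entrez identifiers in RefSeq (GRCh38.p14). For the 769 genes with several probe sets, the one with the highest mean was used. No test was run. The counting was checked on simulated data with low noise and set shifts larger than 2-fold, which checks the code and gives no error rate for these arrays. All members are named, with up to 4 detected genes of largest difference per list; other list genes are marked as named after their values were seen. Cell type markers and neighbouring genes are named outside this rule. Members and lists were chosen with earlier results of these data known. Of the 90 listed pathway genes, 9 were not analysed here. The alternatives covered normalization, probe set choice, detection threshold and fold threshold.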

Additional observations from a re-analysis of the deposited data

How the results depend on the processing

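Normalization (quantile, median centring, loess) moved no member's difference by more than 0.054 on the log2 scale. The probe set used per gene could not move a member, since each had 1. Raising dim values to the threshold could move only BCL2, because both values of every detected member lay above it. BCL2L11 stayed between -1.59 and -1.55, BID between -0.73 and -0.69 and PMAIP1 between 0.43 and 0.49. The signs of BAK1 (up to 0.02) and of BCL2 (up to 0.02) turned under some of these settings. With detection at the 75th percentile of all probe sets (6.49), 5 members were left and their median was -0.12. At 1.5-fold in place of 2-fold, 2 members (22.2%) and 2 pathway genes (2.94%) were lower. By the same threshold 8 pathway genes (11.8%) were higher. Of all detected genes, 3.74% were lower and 6.03% higher at 1.5-fold. The other alternatives left the 2-fold counts at 1 member lower, none higher, and no pathway gene in either direction. No paired analysis was possible because each group had 1 array. With no replicate, the difference between cultures could not be estimated, and differences of dim genes may be understated. Detection rests on a convention, not on a measured background.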

Other observations

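Genes next to the BCL2 family members on the RefSeq map were examined after the members' values had been seen. The protein-coding gene on either side of each member gave 20 neighbours, of which 15 were detected, 4 were under the threshold and 1, on the other side of BCL2L11 from ACOXL, was not analysed here. BCL2L11 thus had no detected neighbour. None of these 15 was 2-fold different, and their differences ran from -0.66 to 0.58. The share of all detected genes past 2-fold was 0.863% (lower) and 1.94% (higher), so a count of 0 among 15 is near the background. ACOXL, which lies before BCL2L11 and encodes an acyl-CoA oxidase-like protein, had 3.03 with NC and 2.97 with siRNA, under the detection threshold in both. Beside BID (difference -0.72), BCL2L13, itself a BCL2 family gene, differed by 0.17 and MICAL3, an actin-oxidizing enzyme, by 0.58. CCBE1, beside PMAIP1, had a value of 5.20 in both arrays. KDSR, an enzyme of sphingolipid synthesis beside BCL2, had 6.47 and 5.80 (difference -0.66).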
